A study of Sus scrofa with 23 samples.

Results

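Mitochondrial beta-oxidation shortens fatty acids inside the mitochondrion by a repeated cycle of dehydrogenation, hydration, a further dehydrogenation and thiolytic cleavage. It feeds acetyl-CoA to the citric acid cycle and electrons to the respiratory chain, and it is a main source of energy in resting and oxidative muscle. The genes described here code for acyl-CoA dehydrogenases of the first step (ACADVL, ACADM and ACADS), enoyl-CoA hydratase (ECHS1) and 3-hydroxyacyl-CoA dehydrogenase (HADH). They also code for the subunits of the trifunctional protein of long chains (HADHA and HADHB), 2,4-dienoyl-CoA reductase (DECR1) and the subunits of the electron transfer flavoprotein (ETFA and ETFB). The set was chosen by name: a non-control probe belonged to it where its gene name was one of these 10 symbols, or where its description gave the symbol in parentheses. This rule took 27 probes of 7 genes, out of 3791 different gene names on the array. The counts were 7 probes for ACADM, 2 for ACADS, 3 for HADHA, 2 for HADH, 2 for ECHS1, 3 for DECR1 and 8 for ETFA. HADHB, which the files call LCTHIO, has 3 probes and was matched through an older symbol in RefSeq's table, and ACADVL has 1 probe matched through its accession. These 2 genes are given beside the 7 and are left out of the counts of members. ETFB was not analysed here.

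The samples were Longissimus skeletal muscle, the long muscle of the back, of 23 pigs weighing 115 kg. The pigs came from lines that differ in RFI, or residual feed intake, meaning what an animal eats above the amount predicted from its growth and upkeep. The 7 RFIneg pigs were of the low-RFI line and ate ad libitum, the 8 RFIplR pigs were of the high-RFI line and had their feed limited to the level of the low line, and the 8 RFIpl pigs were of the high-RFI line and ate ad libitum. RFIneg against RFIpl therefore compares the lines under free feeding, RFIplR against RFIpl compares feeding levels within the high line, and RFIneg against RFIplR compares the lines at a like feeding level. Each pig gave 1 RNA sample and 1 array, read in a single colour, with probes of 60 bases. A relative level below is the log2 processed intensity of a probe minus the 75th percentile of its array, and levels of different probes are not set against each other. Values with a sign are differences between group means on this scale, with standard errors of limma's moderated fit.

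The share of non-control spots well above background ran from 41.6% to 79.0% per array, and its median was 69.3% in RFIneg, 67.3% in RFIplR and 67.9% in RFIpl. Precision is limited by how many arrays there are. The arrays filled 6 slides scanned on 2 days, with all 3 groups on every slide, and slide 3 had the lowest median share, 50.1%. Of the fast-fibre genes 9 of 10 were matched, and of the slow-fibre genes 7 of 8, and all of these were well above background on every array, as were all 31 probes of the beta-oxidation genes. No probe of the beta-oxidation genes was saturated. The labels do not say more about how pigs were drawn from each line, so a difference between lines is one between these animals.

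The probes below show examples of what was measured for the genes that the comparisons turn on, each read 5′ to 3′ from the array files. They were picked among probes that have a reading frame without a stop codon, which the brightest DECR1 probe has not, and only HADHB A_72_P223742 is the brightest probe of its gene. Capitals mark the 57 bases that both HADHB probes share, so that these probes are not separate measurements, and lower case elsewhere marks nothing. The files name no genome build. By the RefSeq table of Sscrofa11.1, DECR1 lies on chromosome 4, HADH on 8, ECHS1 on 14, and HADHA and HADHB are neighbours on 3.
DECR1 A_72_P213607: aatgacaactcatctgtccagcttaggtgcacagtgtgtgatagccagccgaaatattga
HADH A_72_P603143: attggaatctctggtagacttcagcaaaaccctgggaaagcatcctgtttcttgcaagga
ECHS1 A_72_P767234: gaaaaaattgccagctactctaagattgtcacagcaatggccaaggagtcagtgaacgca
HADHA A_72_P713613: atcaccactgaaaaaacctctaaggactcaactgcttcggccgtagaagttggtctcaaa
HADHB A_72_P223742: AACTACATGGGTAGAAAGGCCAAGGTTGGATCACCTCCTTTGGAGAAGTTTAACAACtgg
HADHB A_72_P632229: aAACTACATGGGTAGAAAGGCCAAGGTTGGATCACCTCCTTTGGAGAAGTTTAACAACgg
Probes of ACADM and ETFA overlap too. The longest run shared by a pair of probes was 38 bases for ACADM and 43 for ETFA, while the probes of ACADS, HADHA, HADH, ECHS1 and DECR1 shared no run of 15 bases or more.

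No probe of any beta-oxidation gene passed the threshold of adjusted p 0.05 in any comparison. In RFIneg against RFIpl 0 of the 27 probes passed, against 0.122% of all 27797 probes tested. In RFIplR against RFIpl 0 passed, against 0.0036% of all probes, and in RFIneg against RFIplR 0 passed, against 0.162%. The F test over the 3 groups called 0.137% of all probes and no probe of these genes, with DECR1 the lowest at an adjusted p of 0.18 in limma. At an unadjusted p under 0.05, 3 of the 27 probes were lower in RFIneg than in RFIpl and 0 were higher, against 3.91% and 7.19% of all probes. All 3 were probes of DECR1. At the same level 5 probes were lower in RFIneg than in RFIplR and 0 were higher, against 4.61% and 5.57% of all probes, and these belonged to HADH, DECR1 and ETFA. Between RFIplR and RFIpl 0 probes reached it in either direction, against 4.81% lower and 4.95% higher over all probes.

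**Figure D1:**
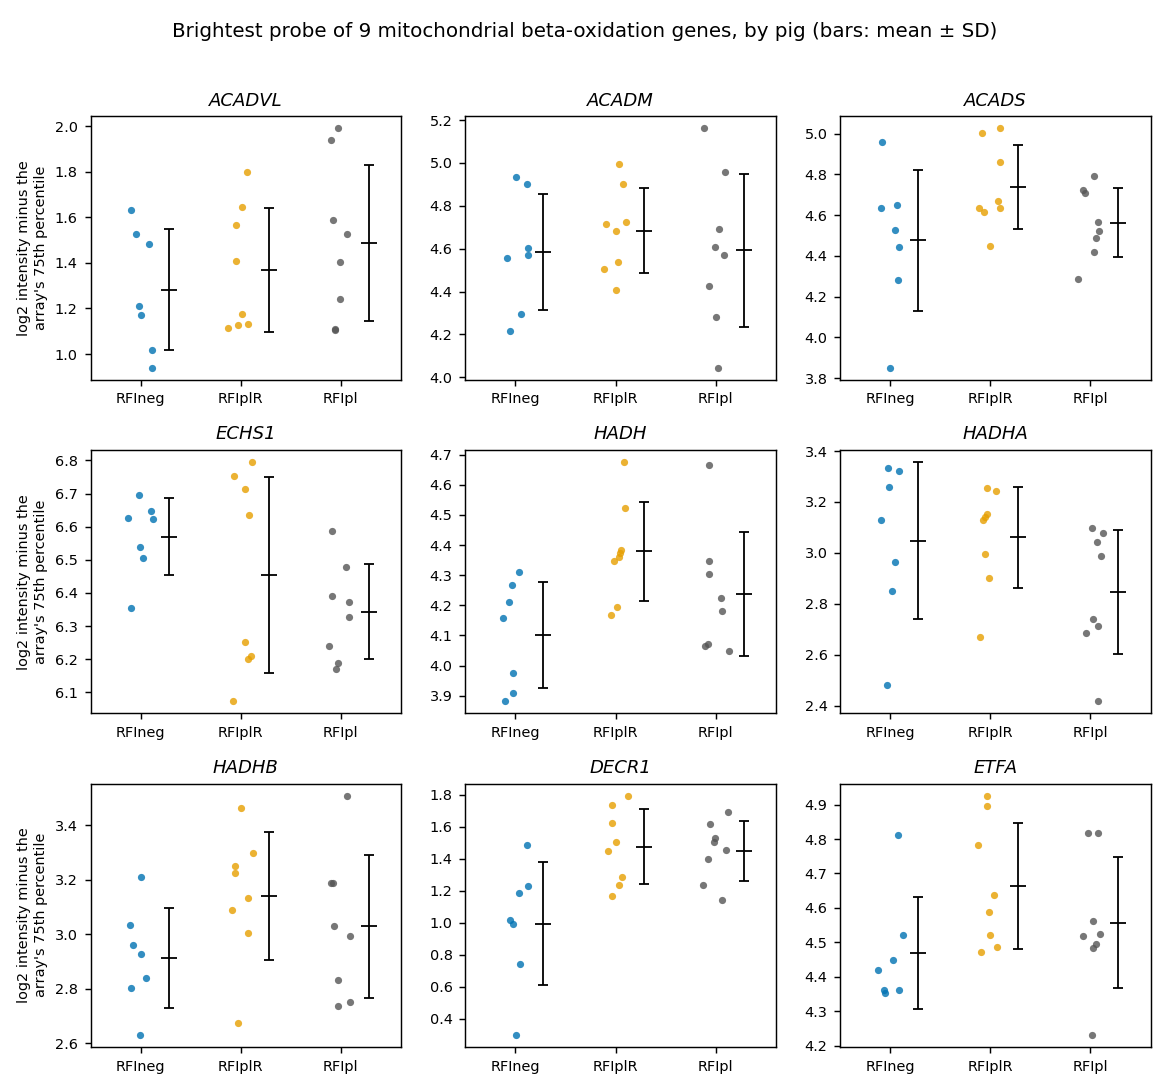
Relative level (log2 intensity minus the array's 75th percentile) of the brightest probe of 9 beta-oxidation genes in each pig, with RFIneg in blue, RFIplR in orange and RFIpl in grey. Points are pigs, and bars give the mean ± SD of 7 RFIneg, 8 RFIplR and 8 RFIpl pigs. The groups overlap for every gene, and DECR1 has 4 RFIneg pigs below the lowest RFIpl pig.

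The largest difference of these genes was that of DECR1, the reductase that prepares unsaturated fatty acids for the cycle. The relative level of its brightest probe, A_72_P683156, had a low of 0.30, a median of 1.02 and a high of 1.49 in RFIneg pigs. The same probe had a low of 1.17, a median of 1.48 and a high of 1.79 in RFIplR pigs, and 1.14, 1.48 and 1.69 in RFIpl pigs. Of the 7 RFIneg pigs 4 lay below the lowest RFIpl pig and 4 below the lowest RFIplR pig, and the groups overlapped. The difference was -0.45 ± 0.14 in RFIneg against RFIpl (SE, 95% interval -0.75 to -0.16), or 0.73 of the RFIpl level, with a limma adjusted p of 0.225. It was -0.48 ± 0.14 in RFIneg against RFIplR (SE, 95% interval -0.78 to -0.19), with a limma adjusted p of 0.204. Neither passed the threshold.

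The other DECR1 probes share no run of bases with the first. For RFIneg against RFIpl the probe A_72_P028606 gave a difference of -0.39 ± 0.12 and A_72_P213607 gave -0.40 ± 0.13 (SE), with limma adjusted p of 0.222 and 0.232. A_72_P028606 had 6 of the 7 RFIneg pigs below the lowest RFIpl pig and A_72_P213607 had 5. Against RFIplR both were smaller, at -0.20 ± 0.12 and -0.24 ± 0.13 (SE), with limma adjusted p of 0.586 and 0.527. For RFIplR against RFIpl the DECR1 probes differed in sign, with 0.03 for the brightest and -0.19 and -0.16 for the others. The difference of the brightest probe in RFIneg against RFIpl was -0.33 on scan day 1 and -0.62 on scan day 2, and its mean was lower in RFIneg on 5 of the 6 slides. Without the arrays of slide 3 it was -0.58.

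**Figure D2:**
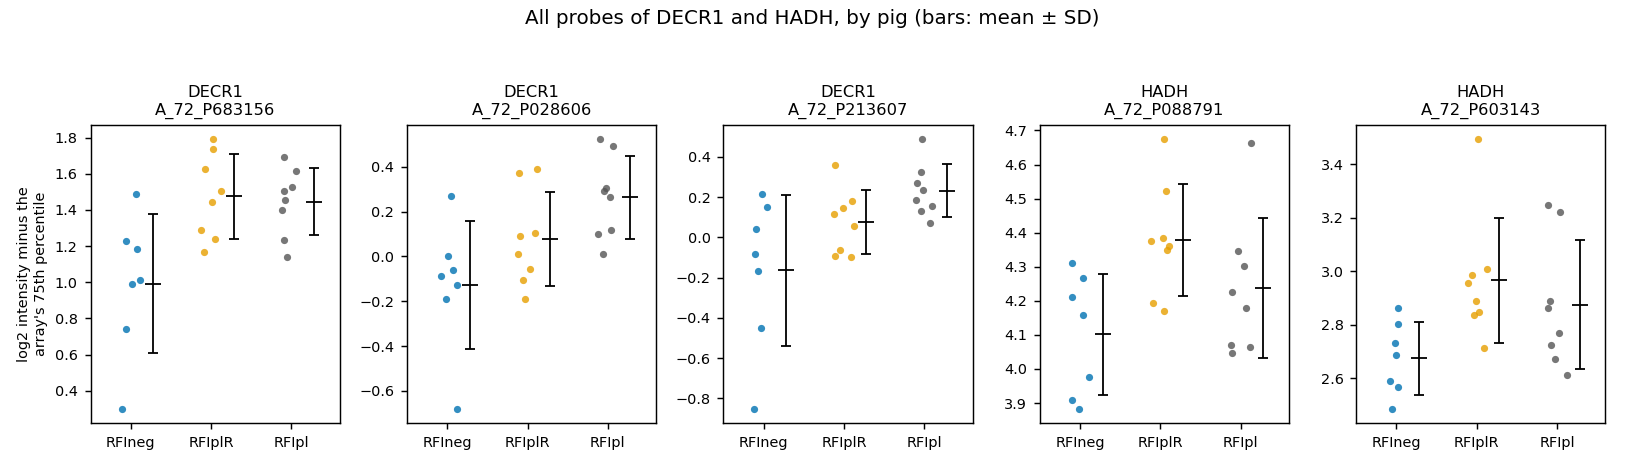
Relative level (log2 intensity minus the array's 75th percentile) of the 3 DECR1 and the 2 HADH probes in each pig, with RFIneg left of RFIplR and RFIpl. Points are pigs and bars give the mean ± SD of 7, 8 and 8 pigs. DECR1 probes sit lower in RFIneg pigs than in RFIpl pigs, by 0.39 to 0.45 on the log2 scale, and HADH probes lower than in RFIplR pigs.

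HADH oxidises the hydroxyl group of medium- and short-chain intermediates in the third step. Its brightest probe, A_72_P088791, had a low of 3.88, a median of 4.16 and a high of 4.31 in RFIneg pigs. It had 4.17, 4.37 and 4.68 in RFIplR pigs, and 4.05, 4.20 and 4.66 in RFIpl pigs. All 7 RFIneg pigs lay below the median of the RFIplR pigs on both probes of HADH, and 4 of them lay below the lowest RFIplR pig. The difference in RFIneg against RFIplR was -0.28 ± 0.10 for A_72_P088791 and -0.29 ± 0.11 for A_72_P603143 (SE), with limma adjusted p of 0.337 and 0.378. Against RFIpl the same probes gave -0.14 ± 0.10 and -0.20 ± 0.11 (SE), and the mean of A_72_P088791 was lower in RFIneg than in RFIplR on all 6 slides.

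ECHS1 hydrates the double bond made in the first step, and its difference had the opposite sign to that of DECR1 in RFIneg against RFIpl. Its brightest probe had a low of 6.35, a median of 6.62 and a high of 6.70 in RFIneg pigs. In RFIplR pigs it had 6.07, 6.44 and 6.80, and in RFIpl pigs 6.17, 6.35 and 6.59. Every RFIneg pig lay above the RFIpl median, and the groups overlapped. The 2 probes of ECHS1 differed by 0.23 ± 0.11 and 0.21 ± 0.15 in RFIneg against RFIpl (SE), with limma adjusted p of 0.454 and 0.646. In RFIneg against RFIplR they did not share a sign, with 0.12 for the brightest and -0.04 for the other.

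ETFA is the alpha subunit of the flavoprotein that takes electrons from the acyl-CoA dehydrogenases. Its brightest probe had a low of 4.35, a median of 4.42 and a high of 4.81 in RFIneg pigs, against 4.47, 4.61 and 4.93 in RFIplR pigs. It had 4.23, 4.52 and 4.82 in RFIpl pigs. In RFIneg against RFIplR 5 of the 7 RFIneg pigs lay below the lowest RFIplR pig, while the RFIneg pig with the highest level lay within the range of both other groups. On the other ETFA probes from 0 to 4 RFIneg pigs lay below the lowest RFIplR pig. All 8 probes were lower in RFIneg than in RFIplR, from -0.23 to -0.09, and all 8 were lower than in RFIpl, from -0.14 to -0.08. The adjusted p in limma was at least 0.416 and 0.626. Against RFIpl the ETFA probes gave -0.04 to 0.07 on scan day 1 and -0.31 to -0.17 on scan day 2. Several of these probes overlap in sequence and are not separate measurements.

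Acyl-CoA dehydrogenases carry out the first step, each for its own range of chain lengths. ACADS, for short chains, had -0.26 ± 0.13 (SE) in RFIneg against RFIplR for its brightest probe, with a limma adjusted p of 0.502, and -0.21 ± 0.14 for the other. Its levels ran from 3.85 to 4.96 in RFIneg pigs, from 4.45 to 5.03 in RFIplR pigs and from 4.29 to 4.79 in RFIpl pigs. The RFIneg pigs had the wider spread, with an SD of 0.35, against 0.21 in RFIplR and 0.17 in RFIpl. ACADM, for medium chains, had 7 probes that were all lower in RFIneg than in RFIpl over all pigs, from -0.23 to -0.01. Their limma adjusted p was at least 0.515. The direction differed between scan days. On scan day 1 all were lower, from -0.37 to -0.22. On scan day 2 only A_72_P653622 was lower, at -0.19, and the others were higher, from 0.12 to 0.26. The brightest ACADM probe ran from 4.22 to 4.93 in RFIneg, from 4.41 to 4.996 in RFIplR and from 4.04 to 5.16 in RFIpl. ACADVL, for very long chains, had -0.20 ± 0.15 (SE) in RFIneg against RFIpl on its only probe, with a limma adjusted p of 0.67. It ran from 0.94 to 1.63 in RFIneg, from 1.11 to 1.80 in RFIplR and from 1.11 to 1.99 in RFIpl.

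HADHA and HADHB are the alpha and beta subunits of the trifunctional protein, which carries out the last steps of the cycle on long chains. HADHA had a low of 2.48, a median of 3.13 and a high of 3.33 in RFIneg pigs on its brightest probe, against 2.67, 3.14 and 3.26 in RFIplR pigs and 2.42, 2.86 and 3.099 in RFIpl pigs. HADHB had 2.63, 2.93 and 3.21 in RFIneg, against 2.68, 3.18 and 3.46 in RFIplR and 2.74, 3.01 and 3.51 in RFIpl. Over all pigs the subunits had opposite signs in RFIneg against RFIpl. The 3 HADHA probes gave differences of 0.19 to 0.28 and the 3 HADHB probes gave -0.11 to -0.08. By scan day the signs did not hold. On scan day 1 the HADHA probes gave 0.31 to 0.58 and the HADHB probes -0.03 to 0.04. On scan day 2 both were lower in RFIneg, with -0.11 to -0.01 for HADHA and -0.23 to -0.19 for HADHB. To compare the subunits, the level of HADHB was taken from that of HADHA within each pig, a comparison chosen after its values were seen. Only the gap between groups in this difference is read, since its sign within a group depends on the probes. It was 0.32 higher in RFIneg pigs than in RFIpl pigs, with SDs of 0.28 and 0.22 (n = 7 and 8) and a two-sided exact permutation p of 0.0326 over 6435 divisions. Adjusted over the 3 comparisons the permutation p was 0.0979, and with the mean of 3 probes a gene it was 0.123. The gap therefore did not pass the threshold, and none of these p-values allows for the choice of the comparison from the same data. The gap was 0.47 on scan day 1 and 0.13 on scan day 2.

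**Figure D3:**
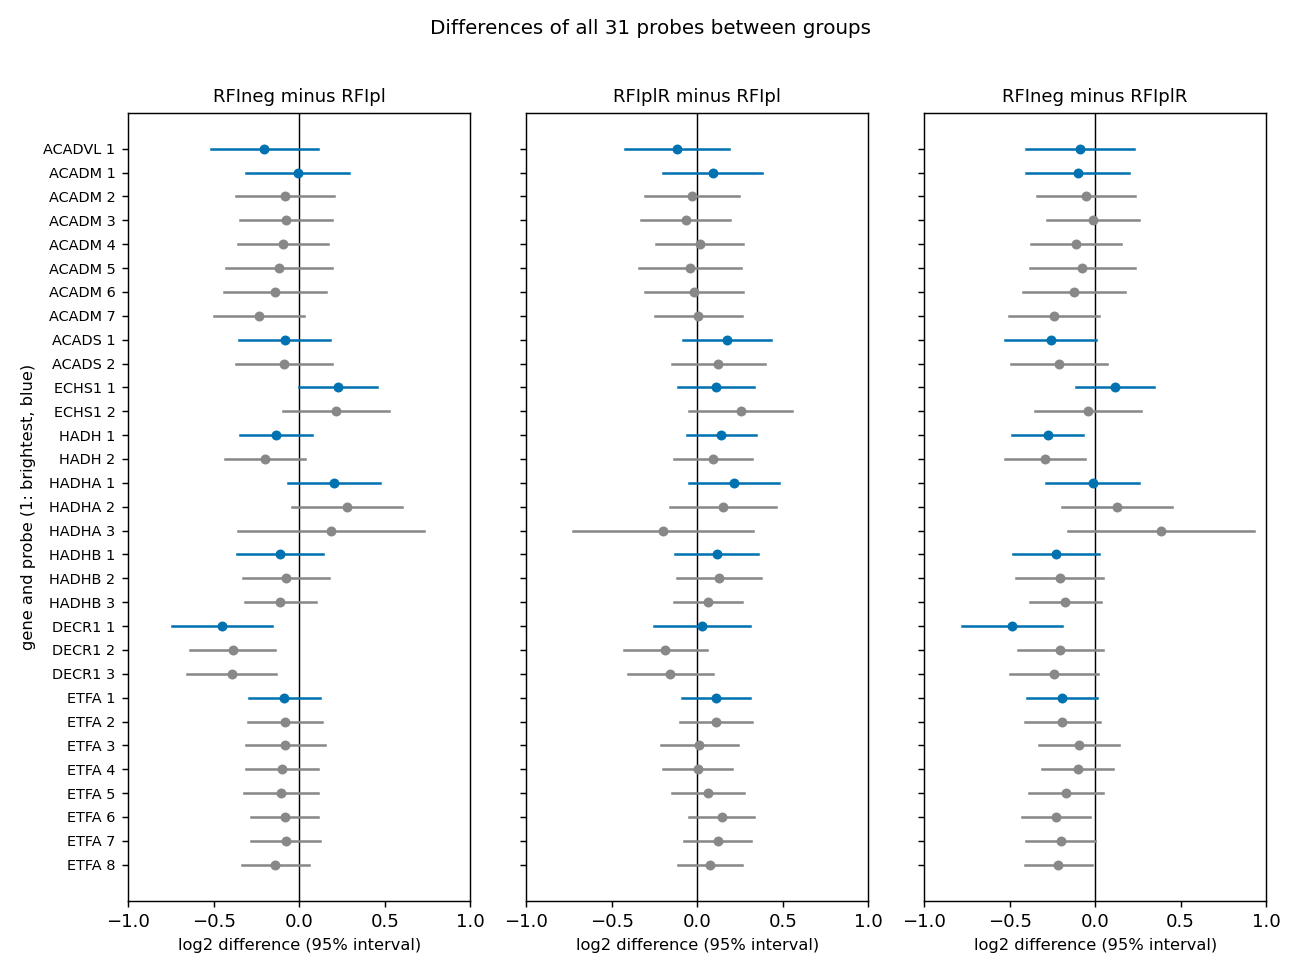
Differences of all 31 probes in the 3 comparisons, with log2 difference on the x axis and genes with their probes on the y axis. Points are limma differences with 95% intervals, and blue marks the brightest probe of a gene. In RFIneg against RFIpl the intervals of the 3 DECR1 probes leave out 0, and in RFIneg against RFIplR those of the brightest DECR1 probe, both HADH probes and 2 ETFA probes do.

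Taken by the brightest probe of each of the 7 genes, the set lay slightly low in RFIneg and slightly high in RFIplR. Between RFIneg and RFIpl 5 genes were lower and 2 higher, with a median difference of -0.09, beside a median of 0.02 over all probes. Without RFIneg replicate 1 this median was -0.0075, and without RFIneg replicate 7 it was -0.14. In RFIneg against RFIplR 6 were lower and 1 higher, with a median of -0.19, beside 0.02 over all probes. HADHA was among the 6 at -0.01, while its other probes gave 0.39 and 0.13. Of all 27 probes 24 were lower and 3 higher in RFIneg than in RFIplR. In RFIplR against RFIpl 0 were lower and 7 higher, with a median of 0.11, beside 0.01 over all probes. This holds for the brightest probes only: of all 27 probes 7 were lower and 20 higher in RFIplR than in RFIpl, and with the mean of each gene's probes ACADM was -0.0072 and DECR1 -0.10. It also holds over all pigs only. Of the brightest probes, ACADM was lower on scan day 1, at -0.02. DECR1 (-0.12), ECHS1 (-0.07) and ETFA (-0.0038) were lower on scan day 2. Some of the 7 genes varied together across pigs, such as HADH with ETFA (r = 0.73), so they are not separate counts. Over all probes 44.7% were lower in RFIneg than in RFIpl, 45.3% lower in RFIneg than in RFIplR, and 53.1% higher in RFIplR than in RFIpl. RFIpl pigs are in the first and last of these comparisons, and the same RFIneg and RFIplR pigs recur, so these counts are not separate evidence. With the normexp correction of background (offset 50) the sign turned, with medians of 0.45 in RFIneg against RFIplR and -0.72 in RFIplR against RFIpl. That correction also moved the median of all probes in RFIplR against RFIpl to 0.21, and its fit gave a background SD over 100 on 5 arrays, 3 of them RFIplR. With normexp fitted on the 153 negative control spots, an alternative added after the data were seen, the medians were -0.21 and 0.11.

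The 95% intervals of the brightest probes of the 7 genes show which sizes of difference the data leave possible. In RFIneg against RFIpl they reached down to -0.75, for DECR1, and up to 0.47, for HADHA. In RFIneg against RFIplR they reached down to -0.78 for DECR1, -0.53 for ACADS and -0.49 for HADH, and up to 0.34 for ECHS1. In RFIplR against RFIpl they ran from -0.25, for DECR1, to 0.48, for HADHA. In simulated data of this design, 81 of 100 probes changed by 1 log2 unit were called in RFIneg against RFIpl and 33 of 100 changed by 0.5 were. The changed probes were drawn at random from the kept probes, each with its own spread and independent noise. These shares therefore do not describe the 7 genes themselves. The differences of the 7 genes lay between -0.48 and 0.23 over the 3 comparisons.

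The genes around the cycle gave no called difference either. Of 12 other mitochondrial beta-oxidation genes 5 were measured, and 0 passed the threshold in either direction in any comparison. The smallest p in RFIneg against RFIpl was that of ACAD10, an acyl-CoA dehydrogenase family member, at 0.31 ± 0.12 (SE) with a limma adjusted p of 0.31. ACADL, the long-chain dehydrogenase, had 0.07 there with a limma adjusted p of 0.885. Of 6 genes of the carnitine shuttle, which moves fatty acids into the mitochondrion, 4 were measured and 0 passed. All 4 were higher in RFIneg than in RFIpl, with a median of 0.26, and higher in RFIplR than in RFIpl, with a median of 0.24. Of all probes 55.3% were higher in the first of these comparisons and 53.1% in the second. CRAT, carnitine acetyltransferase, differed by 0.27 ± 0.10 in RFIneg against RFIpl and by 0.21 ± 0.10 in RFIplR against RFIpl (SE), with limma adjusted p of 0.316 and 0.496. CPT1A and CPT1B, the carnitine palmitoyltransferases at the outer membrane, differed by 0.54 ± 0.27 and 0.27 ± 0.19 in RFIplR against RFIpl (SE), with limma adjusted p of 0.539 and 0.705. In RFIneg against RFIpl the same genes differed by 0.25 ± 0.28 and 0.02 ± 0.20 (SE), with limma adjusted p of 0.809 and 0.984.

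Peroxisomal beta-oxidation, a related route for very long and branched chains, had 5 of 12 genes measured and 0 called. EHHADH, a bifunctional enzyme of peroxisomes, differed by 0.37 ± 0.14 (SE) in RFIneg against RFIplR with a limma adjusted p of 0.381. In that comparison 2 of the 5 genes were lower and 3 higher. Of 11 regulators of these genes 6 were measured and 0 were called. PPARGC1A, a coactivator of mitochondrial and fatty acid oxidation genes, had a low of 1.21, a median of 1.39 and a high of 2.07 in RFIneg pigs. It had 1.66, 2.37 and 4.98 in RFIplR pigs and 1.70, 2.03 and 3.35 in RFIpl pigs, and the groups overlapped. PPARGC1A differed by -1.32 ± 0.38 (SE) in RFIneg against RFIplR, with a limma adjusted p of 0.2. In RFIplR against RFIpl PPARGC1A differed by 0.66 ± 0.37 and in RFIneg against RFIpl by -0.66 ± 0.38 (SE), with limma adjusted p of 0.586 and 0.551. PPARA, PPARD and SIRT1, a pair of nuclear receptors of fatty acids and a deacetylase, had limma adjusted p of at least 0.586 in the 3 comparisons.

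Of 5 genes of acetyl-CoA and malonyl-CoA supply 4 were measured and 0 passed. PDK4, the kinase that holds back pyruvate dehydrogenase, ran from -1.62 to 2.97 in RFIneg, from -1.23 to 6.44 in RFIplR and from -1.01 to 2.67 in RFIpl. Its difference was -1.61 ± 0.86 (SE) in RFIneg against RFIplR, with a limma adjusted p of 0.534. ACACB and ACACA, the acetyl-CoA carboxylases, had limma adjusted p of at least 0.619 in the 3 comparisons.

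Markers of other cell types and of mitochondrial content were set beside these values. All 8 measured adipocyte genes were lower in RFIneg than in RFIpl, with a median of -0.63 and 0 called, and their mean level ran from 0.09 to 1.54 in RFIneg, from 0.05 to 1.79 in RFIplR and from -0.17 to 2.55 in RFIpl pigs. Against RFIplR 6 were lower and 2 higher in RFIneg, with a median of -0.41. Of 6 measured genes of mitochondrial content 4 were lower in RFIneg than in RFIpl and 5 lower than in RFIplR, with medians of -0.09 and -0.11. Their mean level ran from 5.50 to 5.85 in RFIneg, from 5.66 to 6.04 in RFIplR and from 5.46 to 6.04 in RFIpl pigs. The slow-fibre genes had medians of -0.05 in RFIneg against RFIpl and -0.04 against RFIplR, and the fast-fibre genes 0.16 and 0.11. Of the 9 fast-fibre genes 8 were higher in RFIneg than in RFIpl and 9 higher than in RFIplR, with 0 called, the opposite direction to most of the beta-oxidation genes. Of 5 endothelial genes 4 were lower in RFIneg than in RFIpl, as were all 4 measured leukocyte genes and 1 of 2 fibroblast genes, with 0 called. In RFIneg against RFIplR all 4 leukocyte genes were lower, with a median of -0.30, while 2 endothelial genes were lower and 3 higher, with a median of 0.16, and both fibroblast genes were higher. The part of these in the differences of DECR1 or HADH was not tested. In bulk muscle, fewer cells of a type and less RNA per cell cannot be told apart.

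Across pigs of the same group, most pairs of these genes had levels that varied in the same direction. After the group means were removed, 34 of the 36 pairs among 9 genes had a Pearson r above 0 over the 23 pigs, with a median of 0.29 and a range of -0.07 to 0.79. Of these 9 pairs had a permutation p under 0.05 after Benjamini-Hochberg adjustment over the 36. The highest was that of ACADVL with HADHB, at r = 0.79 and Spearman rho = 0.79, each with a permutation p of 1e-05, the smallest that these permutations can give, and an adjusted p of 0.00036. Without the 2 pigs farthest from the median of ACADVL the r was 0.75. With slide means removed it was 0.84, and it was 0.77 on scan day 1 and 0.79 on scan day 2. ACADVL with HADHA, the other subunit of the trifunctional protein, had r = 0.72 and rho = 0.76, with permutation p of 0.00014 and 7e-05 and adjusted p of 0.00126 and 0.00084. That r was 0.69 without the 2 farthest pigs, and 0.68 and 0.67 on the scan days. HADH with ETFA had r = 0.73 and rho = 0.80, with permutation p of 0.0001 and 3e-05 and adjusted p of 0.0012 and 0.00054, and r was 0.63 without the 2 farthest pigs. Those of scan day 1 gave r = 0.79 and those of scan day 2 gave 0.79. HADHB with DECR1 had r = 0.71 and rho = 0.73, with permutation p of 8e-05 and 0.00014 and adjusted p of 0.0012 and 0.00126, and r was 0.70 without the 2 farthest. It was 0.62 and 0.73 on the 2 scan days.

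The subunits of the trifunctional protein, HADHA and HADHB, had r = 0.49 and rho = 0.58, with permutation p of 0.0182 and 0.00438 and adjusted p of 0.0655 and 0.0313. Without the 2 farthest pigs the r was 0.53, and with slide means removed it was 0.64 with an adjusted p of 0.0072. It was 0.65 on scan day 1 with 12 pigs and 0.30 on scan day 2 with 11. ACADM had the lowest values, with r below 0 against HADHA and ACADS, -0.04 and -0.07, and none of its pairs was past the threshold. The arrays share scale and depth across genes, so part of any such r can come from the array. Median centring gave 28 pairs past the threshold and 36 above 0, and quantile normalization gave 5 and 30. Pairs of other genes were not counted, so whether these counts are particular to beta-oxidation genes was not tested.

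**Figure D4:**
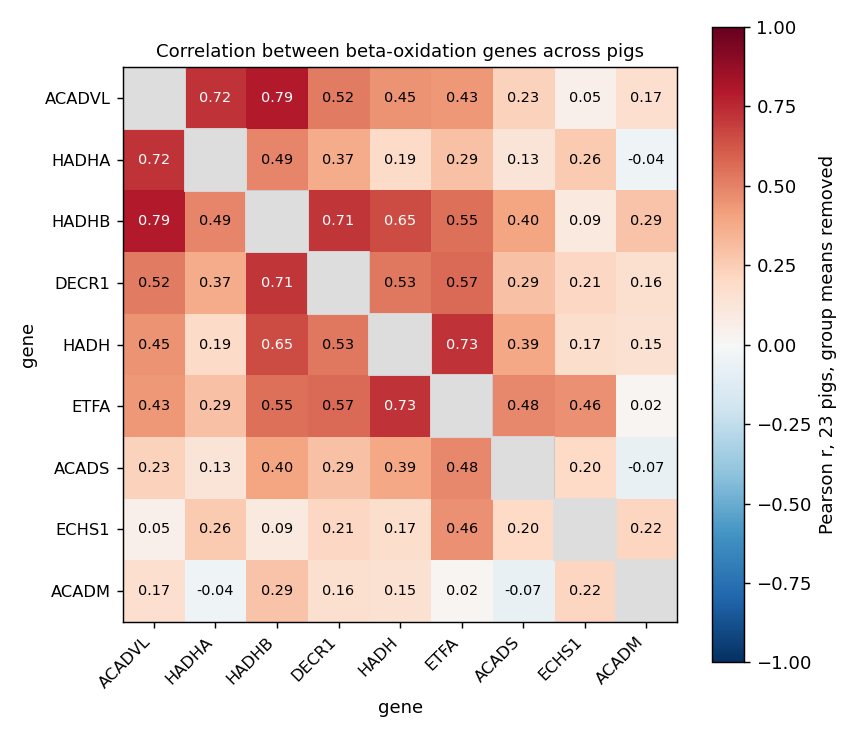
Pearson r between the brightest probes of 9 beta-oxidation genes over 23 pigs after group means were removed, genes on both axes, colour from -1 (blue) to 1 (red). The highest value is 0.79 for ACADVL with HADHB, and the row of ACADM holds the 2 values below 0.

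To find genes with a like pattern, the mean of the 7 members' standardised levels was set against 3027 other named genes over the 23 arrays, with group means removed. The median r of all probes to this mean was -0.02 and the 95th percentile 0.48. Each gene below is given by its probe with the highest r, whereas the median and percentile are over single probes. The highest values were 0.87 for ATPIF1, an inhibitor of ATP synthase, 0.86 for SDHB, a subunit of succinate dehydrogenase, and 0.86 for the gene the files call NUDFV2 (NDUFV2 in its description), a subunit of complex I. ACADL followed at 0.85 and ATP5B, the beta subunit of ATP synthase, at 0.84. On these probes the differences in RFIneg against RFIpl ran from -0.11 to 0.07, with limma adjusted p of at least 0.737. Probes of one gene did not always share the pattern, as NUDFV2 had a probe with r = 0.27. The lowest r was 0.66 among 8 SDHB probes and 0.70 among 9 ATP5B probes. With slide means removed, r was 0.84 to 0.87 for the 5 genes.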

How the data were processed

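Total RNA from Longissimus muscle of 23 pigs was labelled with the dye Cy3 for Agilent arrays of 1 colour, 1 array a pig, per the labels' protocols. Processed spot intensity, background-subtracted and not scaled between arrays, came from Feature Extraction 10.7.3.1, per the file headers, and mean and local background intensity, per the file headers, served only the normexp settings. R 2.10.0 stands in the submitters' processing notes. The authors' deposited table holds log2 values of 26410 probes, equal to log2 processed signal minus a constant per array, and was an alternative only.

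The 43803 non-control spots were taken to log2, each array's 75th percentile was subtracted, outlier spots were set to missing, and spots of a probe were averaged. Of 43603 probes, 27797 were kept because 6 or more arrays of some group had them well above background; 473 had a missing value, and no probe of the beta-oxidation genes had one. One fit held the 3 groups, in limma 3.58.1 (R 4.3.3) with Benjamini-Hochberg adjustment over all kept probes. A gene is represented by its brightest kept probe unless all are given. The genes most like the members' mean are instead represented by their probe with the highest r. Correlations used 1e+05 permutations, two-sided. Scripts were tested on simulated data with 27324 probes, where 5 of 27124 unchanged probes were called.

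The rule for named genes took all members, the 3 genes with the smallest p of each list per comparison, of which the text gives a part, and the 5 genes most like the members' mean. Members and lists were chosen with earlier results of these data known. List genes were matched by the same rule and, beyond it, through older symbols and accessions in RefSeq's table, and ACAA1 was left out because the files describe its probes as another gene. Red blood cell genes had no matched probe. Replicate numbers were not treated as pairs, since the labels give no pairing. Of 22 same-number pairs, deviations correlated from -0.30 to 0.33, with 7 above 0.1. Pairs with different numbers were not set beside them, so these values cannot tell whether pigs of the same number were matched. Nothing says how the pigs within a line are related. Alternatives were other scalings, background corrections and filters, variance and weight settings, slide, scan day or replicate blocks, fits of 2 groups, and leaving out slide 3 or each pig.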

Additional observations from a re-analysis of the deposited data

Results flagged for a closer look

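ETFA had 1 pig far from the others of its group, judged by the gap to the nearest pig as a share of the group's range at a 95% critical value. RFIneg replicate 7 had a relative level of 4.81 on the brightest ETFA probe, against 4.35 to 4.52 in the other RFIneg pigs, a gap of 0.64 of the range. It was 1 of 27 combinations of gene and group that were checked, and chance alone picks out about 5% of such groups. Without this pig the difference of ETFA was -0.14 in RFIneg against RFIpl and -0.25 in RFIneg against RFIplR.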

How the results depend on the processing

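No probe of the 7 genes passed the threshold in any of the 3 comparisons under the 38 other settings, where the smallest adjusted p in limma was 0.0992, with array weights. Of 432 values of single genes under settings other than leaving out a pig, 406 kept their direction and 26 did not, 16 of these under normexp with offset 50. That setting gave 0 probes past the threshold in all 3 comparisons and the F test, and it had a background SD over 100 on 5 arrays, whose part in this was not tested. It gave member medians of -0.30 in RFIneg against RFIpl, -0.72 in RFIplR against RFIpl and 0.45 in RFIneg against RFIplR. In RFIneg against RFIpl it turned ECHS1 to -0.023. In RFIplR against RFIpl it turned ACADM to -0.77, ACADS to -0.69, HADHA to -0.42, HADHB to -0.61, HADH to -0.72, ECHS1 to -0.73, DECR1 to -0.37 and ETFA to -0.75. In RFIneg against RFIplR it turned ACADVL to 0.19, ACADM to 0.53, ACADS to 0.39, HADHA to 0.46, HADHB to 0.32, HADH to 0.34 and ETFA to 0.45. The other reversals were under several settings. ACADM in RFIneg against RFIpl was 0.014 with median centring, 0.033 with slide as a fixed block and 0.0066 with slide as a random block. DECR1 in RFIplR against RFIpl was -0.0059 with quantile normalization, -0.064 without slide 3 and -0.10 with the mean of its probes, and ACADM there was -0.0072 with the mean of its probes. HADHA in RFIneg against RFIplR was 0.036 with quantile normalization, 0.0026 with the replicate block and 0.17 with the mean of its probes. HADHA minus HADHB in RFIplR against RFIpl was -0.046 with the mean of 3 probes. The correlation of HADHA with HADHB was 0.64 with slide means removed and 0.68 with median centring, each then past the threshold, and 0.42 with quantile normalization, with an adjusted permutation p of 0.169; the planned one of ETFA with ETFB was not run, since no ETFB probe was matched. The cause of these reversals was not tested.

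Leaving out each pig in turn gave ranges that spanned 0 for ACADM (-0.0875 to 0.072) and ACADS (-0.17 to 0.018) in RFIneg against RFIpl, DECR1 in RFIplR against RFIpl (-0.017 to 0.0725) and HADHA in RFIneg against RFIplR (-0.0695 to 0.081). The members' median ranged from -0.14 to -0.0075 in RFIneg against RFIpl, 0.085 to 0.17 in RFIplR against RFIpl and -0.25 to -0.16 in RFIneg against RFIplR. DECR1 ranged from -0.54 to -0.34 in RFIneg against RFIpl. The number of all probes past the threshold ranged from 22 to 40 in RFIneg against RFIpl, 0 to 7 in RFIplR against RFIpl, 18 to 68 in RFIneg against RFIplR and 24 to 70 in the F test.

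For RFIneg against RFIpl, 34 of all probes passed, against 20 with deposited values, 22 with no filter, 18 with probes well above background on all arrays, 52 with trend and robust variance, 107 with array weights, 19 with slide as a fixed block and 18 without slide 3. For RFIplR against RFIpl, 1 passed, against 0 with median centring, either normexp, no filter, trend and robust variance, slide as a fixed block, no slide 3, the replicate block or 2 groups only, 2 with slide as a random block and 3 with scan day as a block. At an unadjusted p under 0.05 in limma, 1337 probes were lower there and 1376 higher. For RFIneg against RFIplR, 45 passed, against 23 with median centring, 21 with deposited values, 18 with no filter, 76 with trend and robust variance, 98 with array weights, 25 and 98 with slide as a fixed and random block, 15 without slide 3, 20 with the replicate block and 25 with 2 groups only. For the F test, 38 passed, against 22 with no filter, 67 with probes above background on all arrays, 92 with trend and robust variance, 182 with array weights, 138 with slide as a random block, 20 without slide 3 and 19 with the replicate block. The replicate block changed no call for a beta-oxidation gene. Of the 23 pigs, 4 correlated best with a pig of their own number, and the number that chance alone would give was not worked out.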
